A study of Mus musculus with 13 samples.

Results

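Transcripts of 10 chemokine genes were followed in cultured mouse myotubes, with and without palmitoylethanolamide (PEA). The genes were Ccl2, Ccl5, Ccl7, Cxcl1, Cxcl5, Cxcl10, Cxcl12, Cxcl14, Cxcl16 and Cx3cl1, chosen by symbol as chemokines expressed by myotubes, and they make up 10 of the 16382 genes in the tables. The cells were wild-type C2C12, a mouse myoblast line that fuses into multinucleated myotubes, treated from day 8 of differentiation. The control group (CON, n = 6 libraries) received the DMSO vehicle for 24 h, and the PEA group (n = 6 libraries) received 10 μM of PEA, an endogenous fatty acid amide, for the same 24 h before harvest. Polyadenylated RNA was sequenced from 2 wells per group in each of 3 repeats of the experiment. Since no label ties a library to its repeat, p-values measure the spread between these libraries, part of which may be technical. All cells came from this single line.

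Chemokines are small secreted proteins that bind receptors on leukocytes and other cells and direct their migration along a gradient. CC chemokines such as CCL2 and CCL7 draw mainly monocytes, CXC chemokines with an ELR motif such as CXCL1 and CXCL5 draw neutrophils through CXCR2, and CXCL10 draws activated T cells through CXCR3. In skeletal muscle, chemokines made by muscle cells are known to recruit the leukocytes that clear damaged fibres, and several are transcribed in response to NF-κB or to interferon.

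Libraries held 12354845 to 50397444 estimated counts over genes, with medians of 18417442 in CON and 18420606 in PEA. CON 1 was 2.25 times as deep as the next largest library. The cultures carried the transcripts of muscle, with 12 of 12 myotube markers tested. Leukocyte transcripts were low: 7 of 13 markers were in the tables and 3 were tested, Ptprc, which marks all leukocytes, averaged 0.319 normalized counts in CON and 0.843 in PEA, and the summed level of the list was 31.5 to 43.0 CPM (counts scaled to the library total) in CON and 36.8 to 46.6 in PEA, most of it Cd14 and Cd68. Myoblast transcripts were present (5 of 5 markers tested), so the chemokine transcripts of fused and unfused cells cannot be told apart here. In bulk RNA, fewer cells of a type and less RNA per cell also cannot be told apart.

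Promoter sequences are shown for 3 members that differed in how they varied between libraries. In CON 3 and CON 6, where the interferon-stimulated genes listed further on were lowest, Cxcl10 and Cxcl14 were low and Cxcl1 lay above its mean. The match was looser elsewhere. In CON 5 the log2 deviation from the mean was -0.26 for the list, -1.38 for Cxcl14 and -0.11 for Cxcl1. The windows run from 250 bases before to 50 bases after the annotated start (RefSeq, GRCm38.p6), which is another build than that of the gene coordinates given further on, and are printed 5′ to 3′ on the gene's strand. Of the 10 members, 5 were matched in the promoter table (Cxcl1, Cxcl10, Cxcl12, Cxcl14 and Cx3cl1). Capitals mark the core of the interferon-stimulated response element (ISRE, searched as GAAANNGAAA) and the NF-κB consensus, both on both strands.
Cxcl10, chr5:92348840-92349139, minus strand: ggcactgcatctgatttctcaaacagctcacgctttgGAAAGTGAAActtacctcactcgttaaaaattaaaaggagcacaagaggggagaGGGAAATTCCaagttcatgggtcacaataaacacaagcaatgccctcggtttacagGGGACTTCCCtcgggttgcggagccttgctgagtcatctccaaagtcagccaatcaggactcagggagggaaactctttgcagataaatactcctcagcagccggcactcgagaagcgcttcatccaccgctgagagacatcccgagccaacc
Cxcl14, chr13:56296502-56296801, minus strand: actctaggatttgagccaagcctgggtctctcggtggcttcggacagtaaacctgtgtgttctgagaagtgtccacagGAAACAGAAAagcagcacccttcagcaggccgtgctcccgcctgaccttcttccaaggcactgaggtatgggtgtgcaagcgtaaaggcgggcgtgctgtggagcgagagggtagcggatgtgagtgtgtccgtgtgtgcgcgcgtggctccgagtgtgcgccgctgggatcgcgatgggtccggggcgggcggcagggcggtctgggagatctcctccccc
Cxcl1, chr5:90890995-90891294, plus strand: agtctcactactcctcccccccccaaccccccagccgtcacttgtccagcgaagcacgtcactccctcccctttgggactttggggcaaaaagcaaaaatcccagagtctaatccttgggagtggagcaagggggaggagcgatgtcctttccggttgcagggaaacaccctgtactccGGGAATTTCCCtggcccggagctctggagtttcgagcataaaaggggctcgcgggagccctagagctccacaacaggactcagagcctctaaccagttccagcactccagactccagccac
The Cxcl10 window held 1 ISRE core, starting 213 bases before the start site, and 2 NF-κB matches, starting 159 and 103 bases before it. The Cxcl14 window held 1 ISRE core, starting 172 bases before the start site. The Cxcl1 window held 2 overlapping NF-κB matches, read on opposite strands of nearly the same letters, at 71 and 70 bases before the start site. Neither of these motifs was matched in the Cxcl12 and Cx3cl1 windows. Yet after each group was centred on its mean, Cxcl12 followed Cxcl10 more closely (r = 0.901 over 12 libraries) than Cxcl14 did (0.734). Among 32851 promoter windows of the same length, 3.44% held the ISRE core and 4.51% the NF-κB consensus. These matches describe letters in the windows, and no binding was measured.

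The members differed widely in abundance. Levels were compared between genes per length, as CPM per kilobase of exon (CPM per kb) averaged over the 12 libraries. Cxcl5 was the most abundant at 742 ± 102 CPM per kb (SD over 12 libraries), which ranked 65 among all genes with a length. It was followed by Ccl2 at 389.7 ± 39.1, Ccl7 at 329 ± 30.5 and Cxcl1 at 235 ± 36.1 CPM per kb. These 4 transcripts, all attractants of neutrophils or monocytes, lay within the top 1.20% of genes. Ccl5 averaged 68.6 ± 45.5, Cxcl12 43.1 ± 5.00 and Cx3cl1 15.6 ± 0.826 CPM per kb. Cxcl10 averaged 5.0 ± 2.04 CPM per kb, a level reached or passed by 40.0% of genes. The lowest were Cxcl16 at 1.24 ± 0.238 and Cxcl14 at 0.279 ± 0.234 CPM per kb.

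Each neighbouring pair in this order was compared within libraries by an exact sign-flip permutation test, two-sided, with adjustment over 9 pairs. In 8 pairs the order was the same in 12 of 12 libraries (adjusted p = 0.000549, from a raw p of 0.000488 that is the smallest the exact test can give). The smallest of these steps was that from Ccl2 to Ccl7, a ratio of 1.18. The order of Ccl5 and Cxcl12 did not pass (7 of 12 libraries, mean ratio 1.28, exact permutation test, adjusted p = 0.189). In CON alone the mean log2 ratio of Ccl5 over Cxcl12 was -0.29, and in PEA alone it was 1.01. Levels per length assume that every exon base counted equally, which the poly-A selection and the splitting of shared reads may alter.

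**Figure D1:**
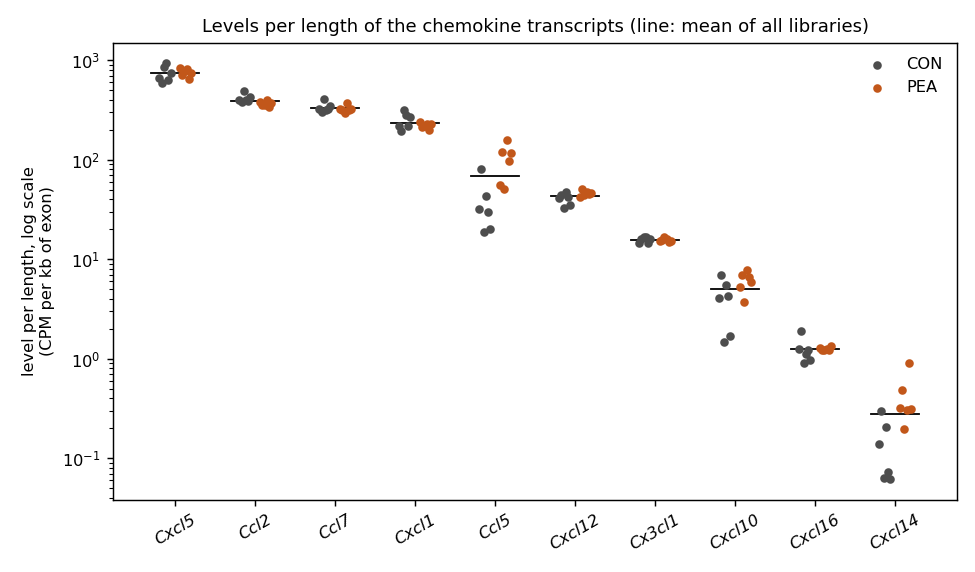
Level per length (CPM per kb of exon, log axis) of the 10 chemokine transcripts in order of their mean; points are libraries (grey CON, orange PEA, 6 each) and lines are means over all 12. Cxcl5 lies highest at 742 and Cxcl14 lowest at 0.279 CPM per kb, and the CON and PEA points separate most for Ccl5 and Cxcl14.

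By share of the members' normalized counts, Cxcl5 made up 45.3 ± 3.05% in CON and 46.1 ± 2.16% in PEA. Ccl5 made up 1.30 ± 0.911% in CON and 3.31 ± 1.27% in PEA. Cxcl5 was thus the largest contributor in both groups, and the share of Ccl5 was larger in PEA. These shares are not corrected for length.

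None of the 10 members was too low to judge by the rule used, which asked for a median of at least 10 estimated counts in at least 1 group and passage of the filter on low counts. Cxcl14 came nearest, with 3 to 24 estimated counts per library in CON (median 7.5) and 12 to 58 in PEA (median 22.0). Its CON values in replicates 3, 5 and 6 rested on 4, 3 and 4 counts, so that counting error alone is large there. Cxcl14 met the rule only through PEA, the group in which it was higher, and with a filter of 10 estimated counts in every library it was not tested. Every other member had at least 62.0 estimated counts in every library, the lowest being Cxcl10 in CON 3.

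PEA was compared with CON for all 13142 genes that passed the filter, by edgeR's quasi-likelihood test with Benjamini-Hochberg adjustment. At an adjusted p below 0.05, 2 of the 10 members were called, Ccl5 and Cxcl14, and both were higher in PEA. Over all genes tested, 11.0% were called, 6.31% higher and 4.74% lower, so that 2 of 10 lies near that background and is not read as a property of the chemokines as a group. The median log2 fold change was 0.04 over the members and 0.01 over all genes tested. In no member were the groups' normalized counts without overlap, as they were for 4.34% of all genes tested.

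**Figure D2:**
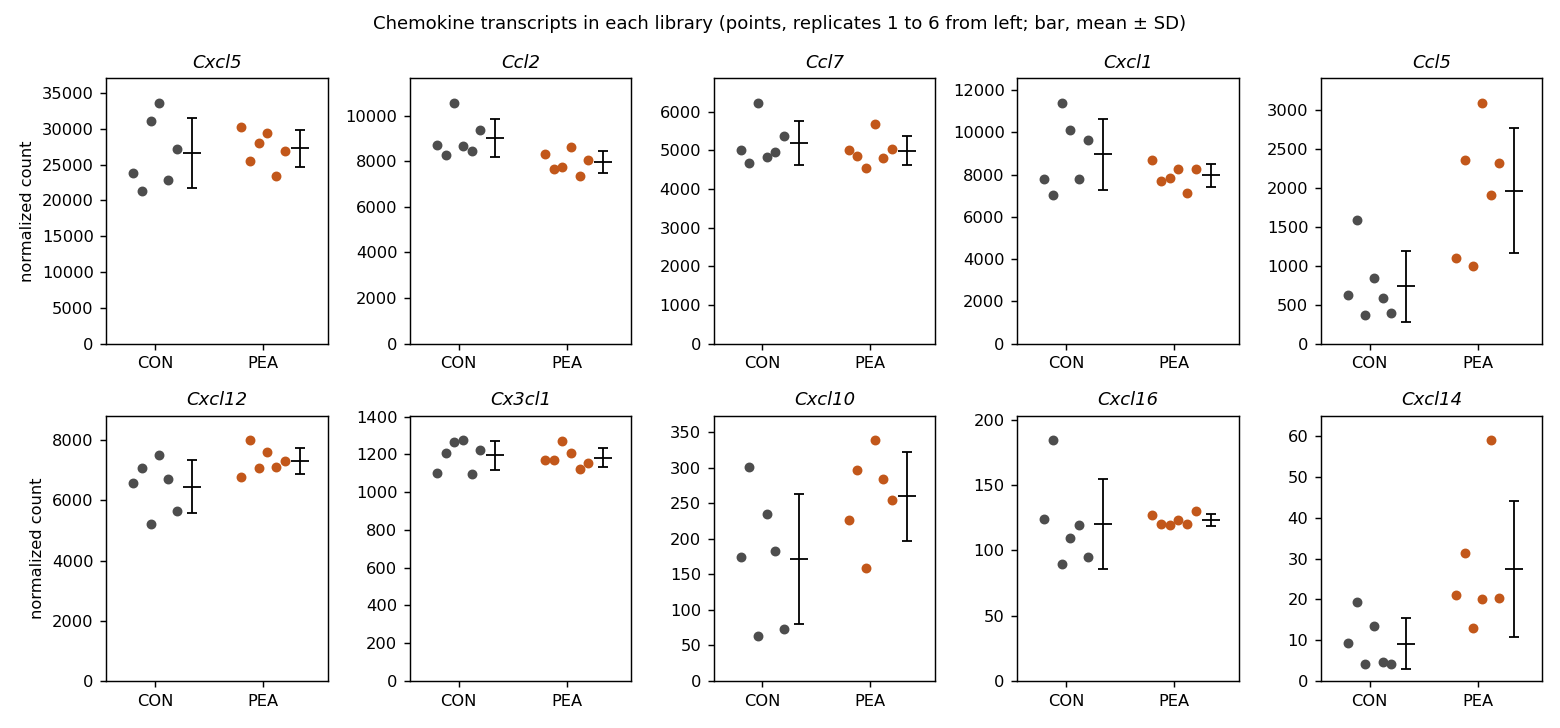
Normalized count of each chemokine transcript in each library (y axis from 0, panels ordered by level per length); points are replicates 1 to 6 of CON (grey) and PEA (orange), and bars are mean ± SD. For Ccl5, 4 of 6 PEA libraries lie above the highest CON library, and for Cxcl14 5 of 6, while the groups overlap broadly for Ccl7, Cxcl5 and Cx3cl1.

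Ccl5 and Cxcl10 are known as interferon-inducible chemokines. Ccl5 (ENSMUSG00000035042, GRCm39 chromosome 11, 83416602 to 83425942), which encodes an attractant of T cells and monocytes, had 621, 1586, 365, 845, 588 and 397 normalized counts in CON 1 to 6. In PEA 1 to 6 it had 1102, 2356, 993, 3092, 1912 and 2318. CON 2 was the only CON library within the PEA range, and PEA 1 and PEA 3 were the only PEA libraries within the CON range. Ccl5 rose in the mean from 734 ± 452 in CON to 1962 ± 805 in PEA, a log2 fold change of 1.43 (SE 0.33, 95% CI 0.74 to 2.12, edgeR adjusted p = 0.0122). It was called under every alternative with all libraries at this threshold and in 12 of 12 fits that left out 1 library. Without CON 3 and CON 6 together, the log2 fold change was 1.12 (edgeR adjusted p = 0.0336).

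Cxcl10 (ENSMUSG00000034855, chromosome 5, 92494497 to 92496748), the ligand of CXCR3 on activated T cells, ranged in CON from 63.8 over a median of 179 to 301 normalized counts. In PEA it ranged from 158 over a median of 269 to 339. CON 3 and CON 6 lay below every PEA library, and only PEA 4 lay above every CON library. The means were 172 ± 91.7 (CON) and 259.6 ± 62.7 (PEA; log2 fold change 0.61, SE 0.29, 95% CI -0.01 to 1.22, edgeR adjusted p = 0.187), which did not pass the test. Without CON 2 the adjusted p was 0.0442 (log2 fold change 0.84), and without CON 3 and CON 6 the log2 fold change was 0.23 (edgeR adjusted p = 0.52). The call for Cxcl10 thus depended on which CON libraries were included. It depended on the model too. With replicate numbers added to the model and all libraries kept, Cxcl10 was called (log2 fold change 0.72, edgeR adjusted p = 0.0268).

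Ccl5 and Cxcl10 varied together within each group. Within CON (n = 6), Pearson's r of log2 CPM was 0.917 (exact permutation p = 0.00833, adjusted over 6 relations 0.0167) and Spearman's rho was 0.943 (exact permutation p = 0.0167, adjusted 0.025). Within PEA (n = 6), r was 0.900 (exact permutation p = 0.00417, adjusted 0.0167) and rho was 0.943 (exact permutation p = 0.0167, adjusted 0.025). Without the 2 libraries farthest from the median Ccl5 level, r was 0.956 in CON and 0.691 in PEA, each over 4 libraries. Libraries that are wells of one repeat are not independent, which these tests take no account of.

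Among the homeostatic chemokines, Cxcl14 was called, but it entered the test through its counts in PEA, so the call is not independent of the filter. Cxcl14 (ENSMUSG00000021508, chromosome 13, 56436352 to 56444603), a chemokine expressed by epithelia and other tissues at rest, had 9.19, 19.3, 4.11, 13.4, 4.72 and 4.07 normalized counts in CON 1 to 6. In PEA 1 to 6 it had 21.0, 31.3, 12.9, 20.2, 59.1 and 20.2. CON 2 and CON 4 fell within the PEA range, and only PEA 3 fell within the CON range. The mean was 9.13 ± 6.20 in CON and rose to 27.5 ± 16.6 with PEA (log2 fold change 1.57, SE 0.43, 95% CI 0.65 to 2.48, edgeR adjusted p = 0.0294). The call was lost in 6 of 12 fits without 1 library (edgeR adjusted p = 0.0553 without CON 1, 0.0543 without CON 3, 0.0597 without CON 5, 0.0689 without CON 6, 0.0601 without PEA 2 and 0.0884 without PEA 5), with log2 fold changes of 1.19 to 1.89 over all 12 such fits. Without CON 3 and CON 6 together, it was 1.23 (edgeR adjusted p = 0.121).

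Cxcl12 (ENSMUSG00000061353, chromosome 6, 117144945 to 117158328), the ligand of CXCR4 and ACKR3 that guides stem and progenitor cells, ranged from 5216 over 6654 (median) to 7504 normalized counts in CON. With PEA the lowest, median and highest were 6774, 7208 and 8009. As with Ccl5 and Cxcl10, the lowest libraries were CON 3 and CON 6, and 2 PEA libraries lay above every CON library. The means were 6459 ± 868 and 7317 ± 437 (log2 fold change 0.18, SE 0.08, 95% CI 0.02 to 0.34, edgeR adjusted p = 0.127). Cxcl12 was called in none of 10 alternatives with all libraries and none of 12 with 1 library left out, and its log2 fold change without CON 3 and CON 6 was 0.07 (edgeR adjusted p = 0.487).

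The monocyte attractants Ccl2 and Ccl7 lie 8.25 kb apart. Ccl2 (ENSMUSG00000035385, chromosome 11, 81926397 to 81928279), the main ligand of CCR2, ranged from 8296 over 8710 to 10580 normalized counts in CON. In PEA it ranged from 7360 over 7908 to 8650. Of the PEA libraries 4 lay below every CON library, and of the CON libraries 4 lay above every PEA library. The means were 9023 ± 849 and 7967 ± 473 (log2 fold change -0.18, SE 0.06, 95% CI -0.30 to -0.05, edgeR adjusted p = 0.0631), a fold of 0.884 that missed the threshold. DESeq2, which called 14.5% of the genes it tested, called Ccl2 (adjusted p = 0.029), as did edgeR without CON 2 (adjusted p = 0.0297). The other fits without 1 library did not call it (edgeR adjusted p up to 0.142, without PEA 5), and without CON 3 and CON 6 its log2 fold change was -0.10 (edgeR adjusted p = 0.256).

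Ccl7 (ENSMUSG00000035373, chromosome 11, 81936532 to 81938351), a further ligand of CCR2, ranged from 4661 over 4988 to 6235 normalized counts in CON. In PEA it ranged from 4548 over 4933 to 5685. In each group 5 of 6 libraries lay within the range of the other. The means were 5181 ± 568 and 4989 ± 383 (log2 fold change -0.05, SE 0.07, 95% CI -0.20 to 0.09, edgeR adjusted p = 0.661).

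Ccl2 and Ccl7 varied together within CON (n = 6, Pearson's r = 0.983, exact permutation p = 0.00556, adjusted 0.0167, Spearman's rho = 0.943, exact permutation p = 0.0167, adjusted 0.025). Within PEA (n = 6) the relation did not pass the test (r = 0.788, exact permutation p = 0.0639, adjusted 0.0639, rho = 0.771, exact permutation p = 0.103, adjusted 0.103). Without the 2 libraries farthest from the median Ccl2 level, r was 0.691 in CON and 0.652 in PEA, so that the height of the CON value rested on those libraries, CON 3 and CON 6.

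The neutrophil attractants Cxcl5 and Cxcl1 lie 130 kb apart in the CXC cluster of chromosome 5. Cxcl5 (ENSMUSG00000029371, chromosome 5, 90907186 to 90909483) ranged from 21330 over 25510 to 33660 normalized counts in CON. With PEA the lowest, median and highest were 23460, 27460 and 30300, entirely within the CON range. The means were 26660 ± 4874 and 27260 ± 2539 (log2 fold change 0.03, SE 0.10, 95% CI -0.17 to 0.24, edgeR adjusted p = 0.857). The interval allows a fold of 0.887 to 1.18.

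Cxcl1 (ENSMUSG00000029380, chromosome 5, 91039094 to 91040974) ranged from 7019 over 8725 to 11410 normalized counts in CON. The PEA values ran from 7128 over 8045 to 8676. CON 3, CON 4 and CON 6 lay above every PEA library. The means were 8964 ± 1690 and 7974 ± 543 (log2 fold change -0.17, SE 0.10, 95% CI -0.37 to 0.04, edgeR adjusted p = 0.28). The log2 fold change was -0.09 without CON 3 (edgeR adjusted p = 0.563) and -0.03 without CON 3 and CON 6 (edgeR adjusted p = 0.857).

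Cxcl1 and Cxcl5 varied together within CON (n = 6, r = 0.927, exact permutation p = 0.0153, adjusted 0.02, rho = 0.943, exact permutation p = 0.0167, adjusted 0.025). Within PEA (n = 6), r was 0.912 (exact permutation p = 0.0167, adjusted 0.02) and rho was 0.829 (exact permutation p = 0.0583, adjusted 0.07). Without the 2 libraries farthest from the median Cxcl1 level, r was 0.922 in CON and 0.584 in PEA. The estimated counts of Cxcl5 carried a fraction (more than 0.01 from a whole number) in 12 of 12 libraries and those of Cxcl1 in 11. Such fractions arise where reads shared with another feature are split, and those of Ccl2 and Cxcl12 (12 of 12 each) and Cxcl16 (4 of 12) did the same, while Ccl5, Ccl7, Cxcl10, Cxcl14 and Cx3cl1 had whole counts in every library.

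The membrane-bound chemokines Cx3cl1 and Cxcl16 are shed from the cell surface by ADAM proteases. Cx3cl1 (ENSMUSG00000031778, chromosome 8, 95498637 to 95509055), the ligand of CX3CR1 on monocytes, had the lowest coefficient of variation (CV) of the members in CON, 6.54%, and one of 4.28% in PEA, where only Cxcl16 was lower. The 6 CON libraries averaged 1195 ± 78.1 normalized counts, and the PEA libraries 1182 ± 50.6 (log2 fold change -0.01, SE 0.05, 95% CI -0.12 to 0.10, edgeR adjusted p = 0.903). The interval of its fold was 0.920 to 1.07, the narrowest among the members on the log2 scale.

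Cxcl16 (ENSMUSG00000018920, chromosome 11, 70344517 to 70352620), the ligand of CXCR6, ranged from 89.5 over 115 to 185 normalized counts in CON. The PEA values ran from 119 over 122 to 131. CON 2 lay far above the other libraries and CON 3 and CON 6 at the bottom, with all PEA libraries between. The means were 120 ± 34.3 and 123 ± 4.52 (log2 fold change 0.04, SE 0.15, 95% CI -0.28 to 0.36, edgeR adjusted p = 0.893).

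**Figure D3:**
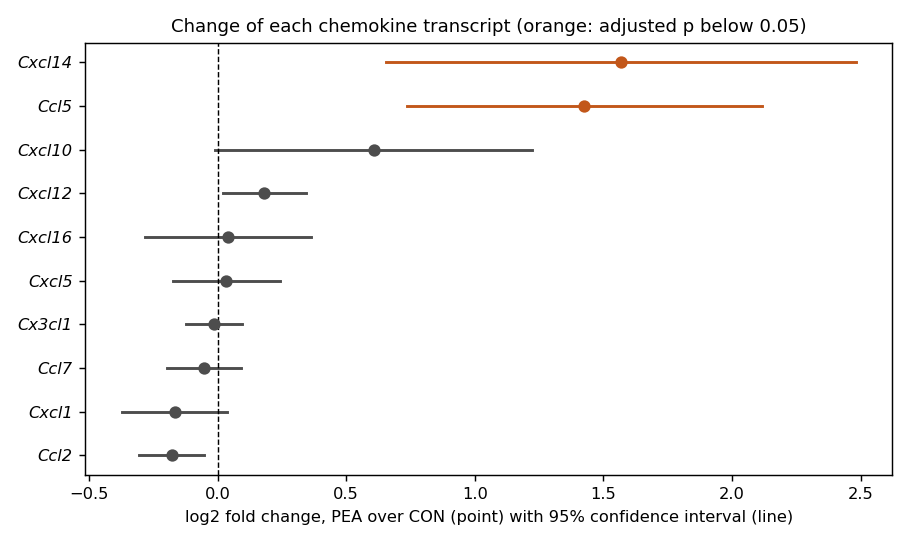
Log2 fold change of each chemokine transcript, PEA over CON, with its 95% confidence interval; orange marks an edgeR adjusted p below 0.05 and the dashed line marks no change. Cxcl14 and Ccl5 lie at 1.57 and 1.43, and the intervals of Cxcl5, Cx3cl1, Ccl7, Cxcl1, Cxcl16 and Cxcl10 include 0.

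The spread between libraries was smaller in PEA than in CON in 10 of 10 members by CV, as it was in 65.8% of all genes tested. The CV of Cxcl16 was 28.5% in CON and 3.67% in PEA, and that of Cxcl1 was 18.9% and 6.81%. The highest CON library of Cxcl10 was 4.71 times the lowest, against 2.14 times in PEA. These values are given without a test.

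Several members shared their high and low CON libraries. The lowest pair of CON libraries was CON 3 and CON 6 for Ccl5, Cxcl10, Cxcl12, Cxcl14 and Cxcl16. For Cxcl14 this rested on 4, 3 and 4 estimated counts in CON 3, CON 5 and CON 6, too few to set CON 5 apart. In CON 3, Ccl2, Ccl7 and Cxcl1 were at their highest of the CON group. Over the 12 libraries, after each group was centred on its mean, Pearson's r of log2 CPM was 0.922 between Ccl2 and Ccl7, 0.872 between Ccl5 and Cxcl10 and 0.901 between Cxcl10 and Cxcl12. For other pairs it was below 0, at -0.659 for Ccl2 with Cxcl10 and -0.781 for Cxcl1 with Cxcl16. These r values are descriptions over libraries that share repeats, and no p is given for them.

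The genes whose pattern was most like that of each member were found by the same centred r over 12 libraries. For Cxcl10 they were Parp9, Sp100 and Ifit1 (r = 0.983 each), which are interferon-inducible. For Ccl5 they were Mthfd2 (r = 0.983), a mitochondrial folate enzyme, the chemokine gene Ccl8 (r = 0.978) and Cyb5r1 (r = 0.976). For Cxcl16 they were Pimreg (r = 0.978), Kif22 (r = 0.965) and Racgap1 (r = 0.957), which act in mitosis and cytokinesis. For Cxcl12 they were Islr (r = 0.964), Timp2 (r = 0.958) and C1s1 (r = 0.955), which encode secreted proteins. Ccl2 was most like Tcea1 (r = 0.959), Dhps (r = 0.951) and Hspe1 (r = 0.944), and Ccl7 like Dhps (r = 0.933), Setd6 (r = 0.925) and Ccl2 itself (r = 0.922). Cxcl1 was most like Arf4 (r = 0.980), Pcnp (r = 0.967) and Nek7 (r = 0.964), and Cxcl5 like Mrfap1 (r = 0.972), Kcnj2 (r = 0.953) and Pcnp (r = 0.949). Cxcl14 was most like Adamtsl1 (r = 0.936), Irak4 (r = 0.922) and Creb3l1 (r = 0.904), and Cx3cl1 like Elk4 (r = 0.906), Notumos (r = 0.902) and Mpc2 (r = 0.891). Being the highest of 13142 genes, these values are high by selection.

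Interferon-stimulated genes moved with the same libraries as Ccl5 and Cxcl10. Of 24 genes on the list, 24 were tested and 24 had a log2 fold change above 0 (median 0.84, against 0.01 over all genes tested). Of the 24, 6 were called higher in PEA, as were 6.31% of all genes tested. The called genes with the smallest p were Cmpk2 (log2 fold change 1.04, edgeR adjusted p = 0.0258), Gbp7 (0.86, 0.0282), Rsad2 (1.00, 0.0282) and Rigi (0.62, 0.0363). The highest levels per length on the list were those of Bst2, at 246 CPM per kb, and Isg15, at 229.7 CPM per kb, which were not called (adjusted p = 0.078 and 0.124). The list's summed level was 593 to 3216 CPM in CON and 2165 to 3418 CPM in PEA. On the mean of centred log2 CPM over the 24 genes, CON 3 was at -1.72 and CON 6 at -1.54, the other CON libraries lay between -0.28 and 0.70, and PEA lay between 0.12 and 0.82. Without CON 3 and CON 6, the list's median log2 fold change was 0.43 and 3 genes were called, Rigi, Gbp3 and Ifi44, the last of which was not called with all libraries. Over all genes, that fit called 841 of 13338, against 1452 of 13142 with all libraries. Cmpk2, Gbp7 and Rsad2 lost their calls in that fit (edgeR adjusted p = 0.0609, 0.053 and 0.0826). The part of the interferon list in the values of Ccl5, Cxcl10 and Cxcl14 was not tested. The fits without CON 3 and CON 6 cannot test it. These libraries stood lowest in CON for the list and for these genes in the same values. Leaving them out therefore lowers the fold changes in any case.

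**Figure D4:**
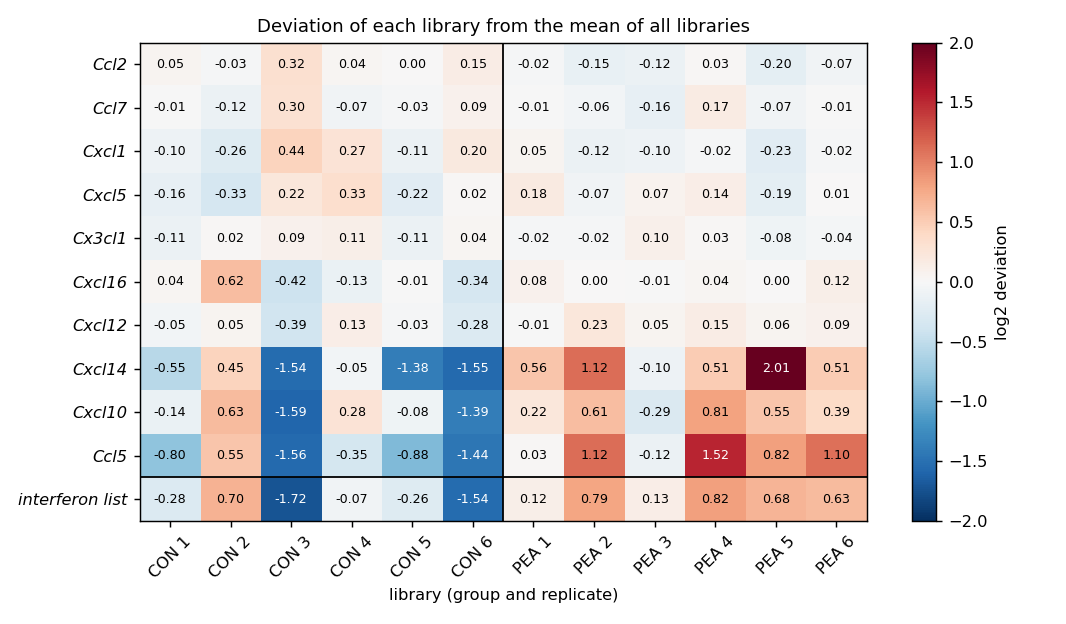
Deviation of each library from the mean of all 12 libraries, as log2(normalized count + 1) for the chemokine genes and as the mean centred log2 CPM of 24 interferon-stimulated genes in the bottom row; columns are libraries, red is higher and blue lower. CON 3 and CON 6 stand at -1.56 and -1.44 for Ccl5, -1.59 and -1.39 for Cxcl10 and -1.72 and -1.54 for the interferon list, while Ccl2 and Cxcl1 are at 0.32 and 0.44 in CON 3.

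Of the interferon signalling factors, 13 of 14 were tested and 2 were called, both higher in PEA, as were 6.31% of all genes tested. They were Irf1, a transcription factor (log2 fold change 0.41, SE 0.11, edgeR adjusted p = 0.0258), and Stat2, a subunit of the factor that binds the ISRE (0.83, SE 0.23, edgeR adjusted p = 0.0276). Irf7, the highest of the list per length at 55.6 CPM per kb, averaged 2718 ± 1916 without and 5330 ± 1386 with PEA (log2 fold change 0.98, edgeR adjusted p = 0.0777). Ifngr1, the next highest at 17.1 CPM per kb, had a log2 fold change of -0.16 (edgeR adjusted p = 0.0846). The median over the list was 0.12. Without CON 3 and CON 6, Stat2 passed the test (edgeR adjusted p = 0.0381) and Irf1 did not (0.0641).

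Of 13 genes of the NF-κB family and its feedback, 13 were tested, 1 was called higher and 2 lower, with a median log2 fold change of -0.03. Over all genes tested, 6.31% were called higher and 4.74% lower. The feedback genes Nfkbiz, which encodes the nuclear cofactor IκBζ, and Nfkbia, which encodes the inhibitor IκBα, fell (log2 fold change -0.27, SE 0.06, edgeR adjusted p = 0.0078 for Nfkbiz, and -0.26, SE 0.08, edgeR adjusted p = 0.0386 for Nfkbia). Zfp36, whose product destabilises cytokine mRNA, rose (log2 fold change 0.33, SE 0.10, edgeR adjusted p = 0.0425). Rela, the highest of the list per length at 41.2 CPM per kb, had a log2 fold change of -0.03 (edgeR adjusted p = 0.738). Without CON 3 and CON 6, Nfkbiz kept its call (edgeR adjusted p = 0.019), and Nfkbia and Zfp36 did not (0.152 and 0.122).

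Of 28 other chemokines, 17 were in the tables and 7 were tested, and none was called by edgeR (unadjusted p below 0.05 in 1 of 7, Ccl8). Ccl8, which lies 67.7 kb from Ccl7 in the same cluster, was the most abundant of them per length at 103 CPM per kb, above the mean of Ccl5. Its means were 841 ± 354 and 1199 ± 269 normalized counts (log2 fold change 0.52, SE 0.20, edgeR adjusted p = 0.108). Ccl11, an eosinophil attractant 10.3 kb from Ccl7, stood at 46.9 CPM per kb (log2 fold change 0.24, SE 0.13, edgeR adjusted p = 0.252). The median log2 fold change over the 7 genes was 0.24, and it was 0.10 without CON 3 and CON 6 (edgeR adjusted p = 0.355 for Ccl8). The 11 chemokines that are not in the tables were not analysed here.

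Few receptors for chemokines could be tested. Of 18 chemokine receptors, 8 were in the tables and 2 were tested. Cxcr4, the receptor of CXCL12, averaged 183 ± 17.6 (CON) and 198 ± 32.9 (PEA) normalized counts, at 5.46 CPM per kb (log2 fold change 0.11, SE 0.12, edgeR adjusted p = 0.576). Cxcr6, the receptor of CXCL16, had 14.1 ± 5.03 and 15.1 ± 3.92 (log2 fold change 0.09, SE 0.30, edgeR adjusted p = 0.875). Of 5 atypical receptors, which bind chemokines without classical signalling, 3 were tested and none was called. Among them Ackr3, the scavenger of CXCL12, averaged 559 ± 43.3 and 655.5 ± 73.9 (log2 fold change 0.23, SE 0.08, edgeR adjusted p = 0.0572), and Ccrl2 had 22.0 ± 6.39 and 16.4 ± 7.02 (log2 fold change -0.38, SE 0.31, edgeR adjusted p = 0.468).

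Of 8 proteases and their regulators that shed or trim chemokines, 6 were tested and 1 was called, against 11.0% of all genes tested. Mmp2, a gelatinase known to cleave CCL7 and CXCL12, fell from a mean of 18700 ± 1029 to one of 16640 ± 606 (log2 fold change -0.17, SE 0.05, edgeR adjusted p = 0.0294), and it stayed below the threshold without CON 3 and CON 6 (edgeR adjusted p = 0.00859). Mmp14, which activates it, had a log2 fold change of -0.04 (edgeR adjusted p = 0.714). The median over the list was -0.03. Adam10 and Adam17, which shed CX3CL1 and CXCL16, had log2 fold changes of 0.05 and -0.02 (edgeR adjusted p = 0.622 and 0.866).

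Cell type markers were read beside the chemokines. Over all genes tested, 6.31% were called higher and 4.74% lower. Without CON 3 and CON 6, 841 of 13338 genes were called in either direction. Of 12 myotube markers, 11 had a log2 fold change below 0 and 2 were called lower (median -0.20), and without CON 3 and CON 6 the median was -0.36 and 6 were called. Their summed level was 6759 to 10270 CPM in CON and 7118 to 7994 in PEA. Of 7 fibroblast markers, which C2C12 cells express in part, 6 were tested and 2 were called higher (median 0.24, summed level 3617 to 4757 CPM in CON and 3771 to 4376 in PEA). Both of these calls were lost without CON 3 and CON 6 (edgeR adjusted p = 0.111 for Col1a2 and 0.0683 for Dcn), the median was 0.11, and Col3a1, whose log2 fold change was -0.12 with all libraries, was called lower (edgeR adjusted p = 0.0394). Of 5 myoblast markers, Mki67, a marker of dividing cells, was called higher (log2 fold change 1.03, edgeR adjusted p = 0.0149) and Cdh15, a muscle cadherin, lower (-0.25, edgeR adjusted p = 0.0444), and both calls stood without CON 3 and CON 6 (0.0301 and 0.00394). The remaining 3 were not called (over all 5, median -0.02, summed level 361 to 515 CPM in CON and 371 to 457 in PEA). Leukocyte and endothelial markers gave no call among the 3 and 1 tested, where Cd14, Cd68 and Lyz2 were the leukocyte markers and Vwf the endothelial one (adjusted p = 0.0722 for Cd14, the lowest of the 4 by edgeR). Cd14 was called without CON 3 and CON 6 (edgeR adjusted p = 0.0255). The summed level of the endothelial list was 0.430 to 1.86 CPM in CON and 1.40 to 2.35 in PEA. The part of the myotube, fibroblast and myoblast markers in the chemokine values was not tested.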

How the data were processed

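Estimated counts per gene were deposited for 12 libraries (6 CON, 6 PEA) and 16382 genes. Per the labels and the study's methods, the authors aligned reads with STAR 4.4.1d to mm39, quantified them in Partek by an expectation-maximisation model and filtered genes by a rule not given in the sources used here. The deposited normalized counts (a signal) are the authors' DESeq2 median-ratio values, 1 divisor per library. Of 13 label entries, PEA 2 and its top-up run share 1 row of values and were 1 library. The tables end at an identifier above which 2240 of 21770 protein-coding genes lie, and those were not analysed here.

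The estimated counts were rounded and tested with edgeR 4.0.16 (TMM, filterByExpr, quasi-likelihood, R 4.3.3, Benjamini-Hochberg over 13142 genes, with 3240 not passing the filter). SE and 95% intervals came from the same fit, and values beside a fold change are deposited normalized counts. Alternatives used DESeq2 1.42.0 and limma 3.58.1, and those that changed the number of members called are given in the closing section. The limma fits called 2 members, as the main fit did. Per-length levels were TMM-scaled CPM per kb of exon (union of exons, pseudocount 0.1 in ratios). Permutation and sign-flip tests were exact and two-sided. The precision of a low gene is limited by 12354845 counts in the smallest library. Scripts were tested on simulated data with 200 changed genes, where 10.36% of DESeq2 calls and 5.75% of edgeR calls were false. Named genes beyond the members were, in each list, up to 4 called genes with the smallest p and the 2 highest per length, and the 3 genes most like each member; Adam10, Adam17, Gbp3, Ifi44 and the cell type markers named singly were chosen after their values were seen. The members and lists were chosen with earlier results of these data known.

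No label says whether replicate numbers pair the libraries, and the main fit had no block.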

Additional observations from a re-analysis of the deposited data

Results flagged for a closer look

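Over the 20 groups examined (10 chemokine genes in CON and in PEA, 6 libraries each), 1 held a library that stood apart by Dixon's criterion, which flags about 1 in 20 groups by chance. In CON 2, Cxcl16 had 184.6 normalized counts, against 123.7 in the next CON library. The gap was 0.641 of the whole CON range, above the critical value of 0.625 for 6 samples.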

How the results depend on the processing

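The number of members called (2) was 3 with DESeq2 and 1 with at least 10 estimated counts in every library and 1 after thinning libraries to the smallest total (Cxcl14 was tested in neither), 0 at an adjusted p below 0.01 and 1 without CON 3 and CON 6 together. It was 1 to 4 over the 12 fits that left out 1 library. Over all genes tested, the main fit called 1452 of 13142, DESeq2 1915 of 13202 and the filter of 10 counts 1453 of 12298. Thinning gave 1255 of 12818, edgeR adjusted p below 0.01 gave 405 of 13142 and leaving out CON 3 and CON 6 gave 841 of 13338. The fit without CON 2, with 4 members called, called 2203 of 13219 genes. The other fits without 1 library called 1 or 2 members and 778 (without PEA 6) to 1393 (without PEA 1) genes. No label says whether replicate numbers pair the libraries. Same-numbered libraries' deviations correlated at -0.083 to 0.065 and none correlated best with its own number, which does not settle it. With replicate numbers as a block, 1570 of 13142 genes were called and 3 members, Cxcl10 added (log2 fold change 0.72, edgeR adjusted p = 0.0268). The edgeR adjusted p of Ccl5 was then 0.00114. The log2 fold change changed sign under some alternatives in 4 members (Ccl7, Cxcl5, Cxcl16 and Cx3cl1), none of which was called in any fit. Over the fits without 1 library, the log2 fold change of Ccl7 ran from -0.093 to 0.007, above 0 without CON 3. That of Cxcl5 ran from -0.022 to 0.112, below 0 without CON 2 or CON 5. That of Cxcl16 ran from -0.03 to 0.201, below 0 without CON 3 or CON 6. That of Cx3cl1 ran from -0.036 to 0.007, above 0 without CON 3, CON 4 or PEA 5. Without CON 3 and CON 6 together, Ccl7 was at 0.038, Cxcl16 at -0.118 and Cx3cl1 at 0.018. The order of Ccl5 over Cxcl12 had a mean log2 ratio of -0.29 in CON alone and 1.01 in PEA alone (exact sign-flip permutation test, adjusted p = 0.281 and 0.0312). Apart from the fits that leave fewer libraries or genes, the causes were not tested. Depth limits Cxcl14 most, with 3 to 24 estimated counts in CON.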
